A study of Mus musculus with 6 samples.

Results

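Intermediate filament genes encode the rod-shaped proteins that build the cell's most stable cytoskeletal fibres and the lamina under the nuclear envelope. The genes were chosen by name, and all 10 of them were found among the 24043 gene rows of the deposited table. They are the type II keratin genes Krt7 and Krt8, the type I keratin genes Krt18 and Krt19, the type III gene Vim, the type IV genes Nes, Nefl and Nefm, and the lamin genes Lmna and Lmnb1.

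Keratins assemble as obligate pairs of a type I and a type II chain, and Krt8 with Krt18 is the first pair made in the mouse embryo, in trophectoderm and other simple epithelia. Vimentin forms homopolymers in mesenchymal and many cultured cells, nestin is a filament protein of neural progenitors, and neurofilament subunits copolymerize in neurons. B-type lamins are made in nearly all cells, whereas A-type lamins are low in pluripotent cells and increase on differentiation.

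The cells were mouse embryonic stem (ES) cells, pluripotent cells grown from the early embryo, and their transcripts were sequenced as RNA-seq libraries. There were 3 wild-type libraries and 3 labelled Q-KO, with a genotype that lacks every G1 cyclin per the labels. Both groups were cultured in Knockout DMEM containing LIF together with PD184352, which inhibits MEK, and CHIR99021, which inhibits GSK3. The age, the strain, the derivation of the lines and the number of clones were not given in the sources used here, and the labels do not say whether replicates are separate cultures. The p-values therefore reflect the variation of these libraries alone, which may be technical in part. In the wild type this variation includes the difference in Y-linked transcripts given below. Values are FPKM, which scale fragments by transcript length and by the mapped fragments of the library, and can therefore be compared between genes as levels per length.

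Of the G1 cyclin genes, which drive entry into S phase, Ccnd1, Ccnd3 and Ccne2 were called lower under the Q-KO label (log2 changes -1.61, -2.76 and -0.97, limma adjusted p = 0.0124, 0.0101 and 0.0182), and Ccnd2 was under 0.55 FPKM in all 6. Ccne1 was not lower, at 65.3, 73.5 and 87.3 FPKM there against 55.9, 53.9 and 37.5 FPKM in wild-type cells (limma adjusted p = 0.113). Which exons are deleted is not given in the sources used here, so FPKM of the whole gene cannot show whether Ccne1 was lost. Directions therefore refer to libraries as labelled. The 8 ES cell marker genes all had a mean of at least 1 FPKM, and 0 of the 8 differed between the groups by limma at an adjusted p under 0.05. Their level summed over the list was 5478 to 6669 FPKM in the wild type and 5423 to 9719 FPKM in Q-KO. Dppa5a alone, at 3738 to 5022 FPKM and 3676 to 7781 FPKM, weighed most in this sum. FPKM summed over all genes was 525134 to 641715 per library, and the steps between low values gave relative depths within a factor of 1.22, but the number of fragments is not given in the sources used here. Wild-type replicate 3 stood apart. It had 98.6 FPKM over 5 Y-linked genes, against 43.2 to 70.5 FPKM in the Q-KO libraries and listed values of 0 in wild-type replicates 1 and 2. Y-linked transcripts were thus present in every Q-KO library but only in replicate 3 of the wild type, so the groups differ in this as well as in genotype. Wild-type replicate 3 also differed by chromosome. The median of its log2 difference from wild-type replicates 1 and 2 was 0.25 for genes of chromosome 8, 0.25 for those of chromosome 11 and -0.02 over all genes. The members' log2 changes are also given without this library.

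The 10 intermediate filament genes spanned a broad range of levels. In wild-type libraries Lmnb1 (152 ± 25.9 FPKM, mean ± SD, n = 3, as for all means below) and Vim (104 ± 36.1 FPKM) were the most abundant, and their ranges overlapped. Every other member lay below both, from Krt8 (11.9 ± 16.3 FPKM) down to Nefm (1.46 ± 1.1 FPKM). From Krt8 through Nefl, Lmna, Nes, Krt18, Krt7 and Krt19 to Nefm, each gene's wild-type range overlapped that of its neighbour in the order. In Q-KO libraries the order began with Lmnb1 (125 ± 14.9 FPKM), Vim (73.1 ± 28.8 FPKM) and Nefl (26.4 ± 7.64 FPKM), whose ranges did not overlap, and ended with Krt8 (2.36 ± 1.18 FPKM) and Krt19 (1.97 ± 1.17 FPKM), whose ranges did. The 3 type IV genes together made up 4.83% to 7.27% of the FPKM summed over the members in wild-type libraries and 13.4% to 15.6% in Q-KO libraries. This share pools Nefl and Nefm, higher in every Q-KO library, with Nes, lower in each. Of these genes only Nefm passed limma's threshold, as given below. Most of the summed FPKM came from Lmnb1 and Vim, whose means were lower in Q-KO but whose groups overlapped.

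**Figure D1:**
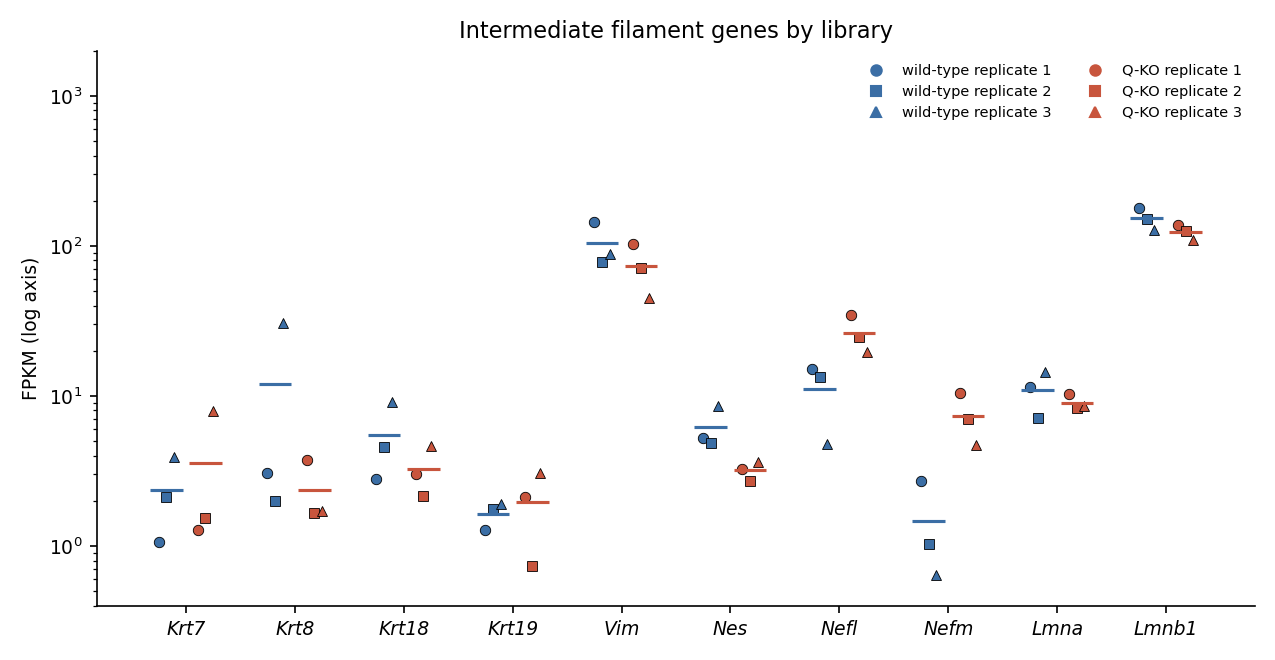
FPKM (log axis) of the 10 intermediate filament genes in each of the 6 libraries; symbols mark the replicate, colours the group and horizontal lines the group mean. Krt8 of wild-type replicate 3, at 30.7 FPKM, lies far above the other libraries, and the Q-KO libraries lie above all wild-type libraries for Nefl and Nefm and below them for Nes.

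All 10 members passed the filter of a mean of at least 1 FPKM, and 1 of the 10 differed between the groups, against 4.06% of all 11573 genes tested with limma on log2(FPKM + 1). That gene, Nefm, was higher in the Q-KO libraries, as were 3.04% of all genes, while 1.02% of all genes were lower. Of 470 genes called, 352 were higher in Q-KO, and after quantile normalization 247 of 457 were. The groups' ranges were separate for 3 of the 10 members, against 27.7% of all genes. Nefl and Nefm were higher in every Q-KO library (18.2% of all genes), and Nes was lower in each (9.44% of all genes). The share with separate ranges was near that of the whole table. The median log2 change was -0.25 over the members and 0.07 over all genes tested.

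**Figure D2:**
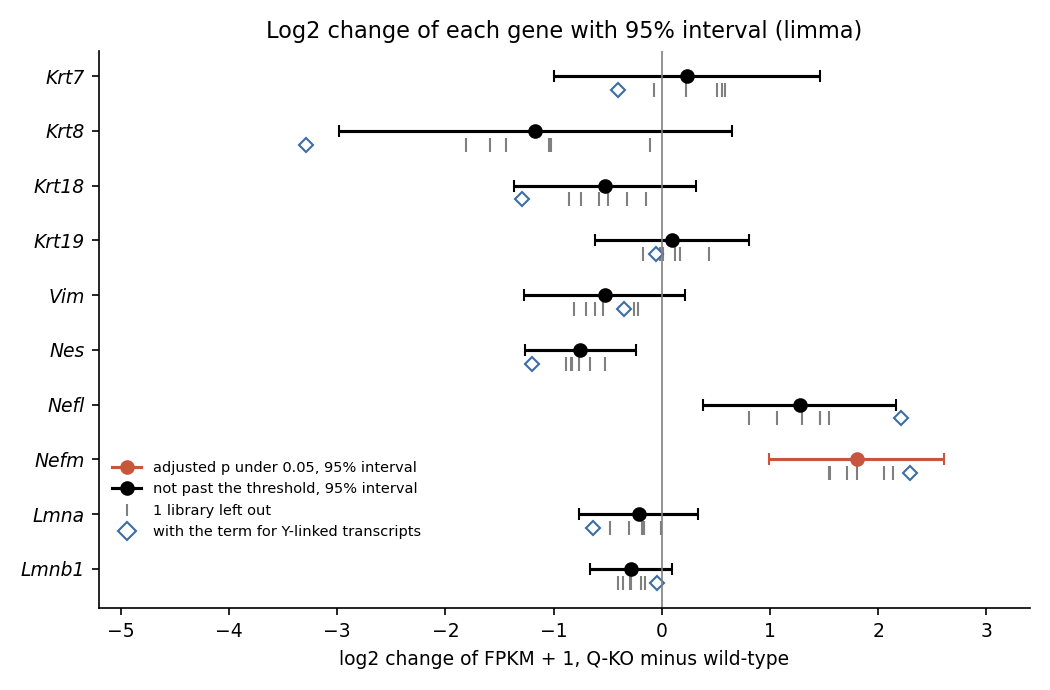
Log2 change of FPKM + 1, Q-KO minus wild-type, for each gene with limma's 95% interval; grey ticks leave out 1 library each and open diamonds come from the model with a Y-linked term. The interval of Nefm, at 1.80, lies above 0 and its gene alone passed the threshold, and the point of Krt8 moves from -1.17 to -3.29 in the model with that term.

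Among the keratins wild-type replicate 3 was the highest wild-type library throughout, and 0 of the 4 genes passed limma's threshold. In replicate order, as for all values by library, Krt8 measured 3.06, 1.997 and 30.7 FPKM in the wild type and 3.73, 1.65 and 1.71 FPKM in Q-KO. A single wild-type library was thus above all others, while the remaining 5 lay within the same low range. The log2 change of Krt8 was -1.17 (SE 0.79, 95% interval -2.99 to 0.65, limma adjusted p = 0.437), and it was -0.11 without wild-type replicate 3 (limma adjusted p = 0.875). A pseudogene, Krt8-ps, and an overlapping lincRNA, Gm36026, are annotated in GENCODE M21, and values of Krt8 may be uncertain for this reason. Reads shared with them were not measured. Pseudogenes were sought only by the name of the gene or by overlap with its locus, so others may have been missed.

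Its partner Krt18 was at 2.79, 4.55 and 9.16 FPKM in the wild type and at 3.02, 2.16 and 4.66 FPKM in Q-KO. Wild-type replicate 3 was again the highest of the 6, and the groups overlapped. The log2 change was -0.52 (SE 0.37, 95% interval -1.37 to 0.32, limma adjusted p = 0.453) and -0.14 without wild-type replicate 3. The ratio of Krt8 to Krt18 FPKM was 1.1, 0.438 and 3.35 in the wild type and 1.24, 0.764 and 0.367 in Q-KO. Transcript of Krt8 thus exceeded that of Krt18 in 2 wild-type libraries and 1 Q-KO library. On the log2 scale this ratio differed by -0.74 between the groups, less than the wild-type SD of 1.47 (exact two-sided permutation test, p = 0.5, where 3 against 3 libraries allow no p below 0.1), and by 0.02 without wild-type replicate 3.

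Krt7, a type II keratin of simple and glandular epithelia, was at 1.06, 2.12 and 3.91 FPKM in the wild type and 1.28, 1.53 and 7.90 FPKM in Q-KO. Here Q-KO replicate 3 was the highest, and the groups overlapped (log2 change 0.23, 95% interval -0.996 to 1.46, limma adjusted p = 0.837). An antisense gene, Gm671, overlaps Krt7, and reads of the pair cannot be told apart without strand. Krt19, a short type I keratin without a tail domain, was at 1.27, 1.75 and 1.90 FPKM in the wild type and 2.12, 0.736 and 3.06 FPKM in Q-KO (log2 change 0.09, 95% interval -0.62 to 0.80, limma adjusted p = 0.896). Its highest and its lowest value both came from Q-KO libraries. Without Q-KO replicate 3 the log2 change was -0.40 for Krt7 and -0.18 for Krt19, and without wild-type replicate 3 it was 0.55 and 0.16.

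The FPKM summed over the 4 keratins was 8.18, 10.4 and 45.7 in the wild type and 10.1, 6.07 and 17.3 in Q-KO. Its log2 level differed by -0.62 between the groups and by 0.15 without wild-type replicate 3 (exact two-sided permutation tests, p = 0.6 and p = 1). Wild-type replicate 3 was the highest wild-type library for 4 of the 4 keratins, and it was so for 34.1% of all genes tested.

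Krt7, Krt8 and Krt18 lie on chromosome 15, and Krt8 and Krt18 are neighbours there with no protein-coding gene between them. The median log2 difference of wild-type replicate 3 from the other wild-type libraries was -0.00294 for genes of this chromosome. Krt19 lies on chromosome 11, where that median was 0.25, and was at 1.26 times the mean of the other wild-type libraries in wild-type replicate 3. The 250 bases before the RefSeq start of these 3 genes are shown because their keratins were highest of the wild-type libraries in wild-type replicate 3, and those of Nes because its groups did not overlap. They are from RefSeq, build GRCm38.p6, and run 5′ to 3′ on the strand of the gene. Capitals mark matches on either strand. The motif searched for as the TATA box was TATAAA. The CCAAT box was searched by the letters of its name. The GC box was taken as GGGCGG. The AP-1 site was taken as TGANTCA. No printed match overlaps another. The windows are chr15:101412153-101412402 (plus strand) for Krt7, chr15:102004343-102004592 (minus strand) for Krt8, chr15:102027966-102028215 (plus strand) for Krt18 and chr3:87970843-87971092 (plus strand) for Nes.
Krt7: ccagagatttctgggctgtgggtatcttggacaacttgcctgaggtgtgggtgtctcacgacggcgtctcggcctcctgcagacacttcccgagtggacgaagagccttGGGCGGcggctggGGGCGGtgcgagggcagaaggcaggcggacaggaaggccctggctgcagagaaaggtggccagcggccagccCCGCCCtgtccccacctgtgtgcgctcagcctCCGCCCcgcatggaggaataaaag
Krt8: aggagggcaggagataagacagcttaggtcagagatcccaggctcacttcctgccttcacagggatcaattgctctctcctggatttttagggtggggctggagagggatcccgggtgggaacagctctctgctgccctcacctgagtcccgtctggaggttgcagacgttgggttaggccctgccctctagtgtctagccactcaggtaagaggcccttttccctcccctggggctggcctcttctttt
Krt18: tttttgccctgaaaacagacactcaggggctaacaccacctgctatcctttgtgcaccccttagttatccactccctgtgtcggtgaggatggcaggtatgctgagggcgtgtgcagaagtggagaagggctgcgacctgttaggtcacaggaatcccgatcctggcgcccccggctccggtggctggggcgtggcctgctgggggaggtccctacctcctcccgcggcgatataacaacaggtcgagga
Nes: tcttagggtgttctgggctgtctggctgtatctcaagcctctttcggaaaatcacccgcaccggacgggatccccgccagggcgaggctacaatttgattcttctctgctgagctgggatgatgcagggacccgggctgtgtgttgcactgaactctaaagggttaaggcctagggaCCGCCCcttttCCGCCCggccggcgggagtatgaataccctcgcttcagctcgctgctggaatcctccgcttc
The window of Vim, not printed, held a TATA box 32 bases before the start and 2 CCAAT boxes, at 196 and 94. Of the windows at 2 starts of Lmna, also not printed, one held a GC box at 52 and the other a CCAAT box at 131. Windows of Krt19, Nefl, Nefm and Lmnb1 were not analysed here. Krt7 held 4 GC boxes, at 141, 128, 56 and 24 bases before the start, and Nes held 2, at 73 and 62 bases before it. In the windows of Krt8 and Krt18 these letters do not occur. Of 32851 promoter windows of the same length, 32.7% held the GC box, 33.8% the CCAAT box, 12.4% the TATA box and 6.75% the AP-1 letters.

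Vim, the only type III member, was at 145, 78.2 and 88.6 FPKM in the wild type and at 103, 71.3 and 45.3 FPKM in Q-KO. Wild-type replicate 1 was the highest and Q-KO replicate 3 the lowest, and the groups overlapped. The log2 change was -0.53 (SE 0.32, 95% interval -1.27 to 0.22, limma adjusted p = 0.389). Leaving out wild-type replicate 1 gave -0.26, leaving out Q-KO replicate 3 gave -0.22, and leaving out wild-type replicate 3 gave -0.61. Fibroblasts make much vimentin, and their markers were uneven between the libraries. In Q-KO replicate 1, 10 of 13 fibroblast markers had their highest value of the 6 libraries, but 0 of the 2 markers abundant enough to be tested, against 11.5% of all genes tested. The summed level of these markers was 10.9 FPKM there, 4.89 and 3.84 FPKM in the other Q-KO libraries and 4.45 to 4.56 FPKM in wild-type libraries. The collagen gene Col3a1 was at 1.35 FPKM in that library and at 0.00425 to 0.0322 FPKM in the other 5, and Dcn, the gene of decorin, was at 0.272 FPKM there and listed at 0 in all 3 wild-type libraries. Without Q-KO replicate 1 the log2 change of Vim was -0.81 (limma adjusted p = 0.238). The part of these markers' cells in the level of Vim was not tested.

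Of the type IV genes 1 rose, Nefm, and the other two did not pass the threshold. Nefm, the medium neurofilament subunit, was at 2.71, 1.03 and 0.643 FPKM in the wild type and at 10.5, 7.03 and 4.69 FPKM in Q-KO. Each Q-KO library was above each wild-type library. Nefm rose by 1.80 on the log2 scale (SE 0.35, 95% interval 0.99 to 2.61, limma adjusted p = 0.0338). The call was lost without wild-type replicate 2 (limma adjusted p = 0.0769), Q-KO replicate 1 (0.102), Q-KO replicate 2 (0.165) or Q-KO replicate 3 (0.0731), and without the filter on low values (0.0901). It was kept without wild-type replicate 3, the lowest library, at a log2 change of 1.55 (0.0418).

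Nefl, the light subunit on which neurofilaments are built, was at 15.2, 13.4 and 4.78 FPKM in the wild type and at 34.6, 24.9 and 19.6 FPKM in Q-KO. The ranges were separate, and wild-type replicate 3 was the lowest library. The log2 change was 1.27 (SE 0.39, 95% interval 0.38 to 2.16) and did not pass the threshold over all genes (limma adjusted p = 0.113). Without wild-type replicate 3 it was 0.81 (limma adjusted p = 0.0943). Summed FPKM of Nefl and Nefm was 17.9, 14.4 and 5.42 in the wild type and 45.1, 31.9 and 24.3 in Q-KO, a log2 difference of 1.45 (exact two-sided permutation test, p = 0.1, the smallest that 3 against 3 libraries allow), and of 0.98 without wild-type replicate 3.

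The ratio of Nefl to Nefm FPKM, a quantity chosen after its values were seen, was 5.62, 12.9 and 7.44 in the wild type and 3.31, 3.54 and 4.18 in Q-KO, so that Nefl exceeded Nefm in all 6 and by less in each Q-KO library. The log2 ratio differed by -1.15. Both genes are neighbours on chromosome 14, and in GENCODE M21 the Nefm locus extends over Nefl on the opposite strand. A processed pseudogene, Gm19216, also overlaps the Nefm locus, on the strand of Nefl. Reads shared with it were not measured. Strand-specific counting is not stated in the sources used here, so reads of Nefl and Nefm may have been split in part. The values of both genes are uncertain for this reason.

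Nes was at 5.26, 4.85 and 8.61 FPKM in the wild type and at 3.28, 2.70 and 3.65 FPKM in Q-KO. All Q-KO libraries were below all wild-type libraries, and wild-type replicate 3 was the highest. The log2 change was -0.75 (SE 0.22, 95% interval -1.26 to -0.24) and did not pass over all genes (limma adjusted p = 0.105). It was -0.53 without wild-type replicate 3.

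Of 9 further genes of types III to VI, 6 were tested and 0 of the 6 passed limma's threshold, with 4 log2 changes above 0 and a median of 0.54 (0.07 over all genes). The heavy neurofilament subunit gene Nefh was at 6.52, 5.53 and 2.44 FPKM in the wild type and at 11.9, 12.4 and 8.76 FPKM in Q-KO (log2 change 1.11, 95% interval 0.43 to 1.79, limma adjusted p = 0.0814). Prph, which encodes the peripheral neuron protein peripherin, was at 1.25, 1.10 and 0.692 FPKM and at 3.78, 2.57 and 2.10 FPKM (log2 change 0.91, limma adjusted p = 0.064). Both, named after their values were seen, had separate ranges and their lowest value in wild-type replicate 3, as did Nefl and Nefm. In Synm, for the large filament protein synemin, the Q-KO libraries were also higher (log2 change 0.635, limma adjusted p = 0.152), and in Des, the muscle filament gene of desmin, lower (log2 change -0.58, limma adjusted p = 0.168). Ina, the internexin gene, overlapped between the groups (log2 change 0.45, limma adjusted p = 0.463). The most abundant gene of this list was Lmnb2, at 20.2 ± 4.65 FPKM in the wild type and 18.8 ± 1.57 FPKM in Q-KO.

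**Figure D3:**
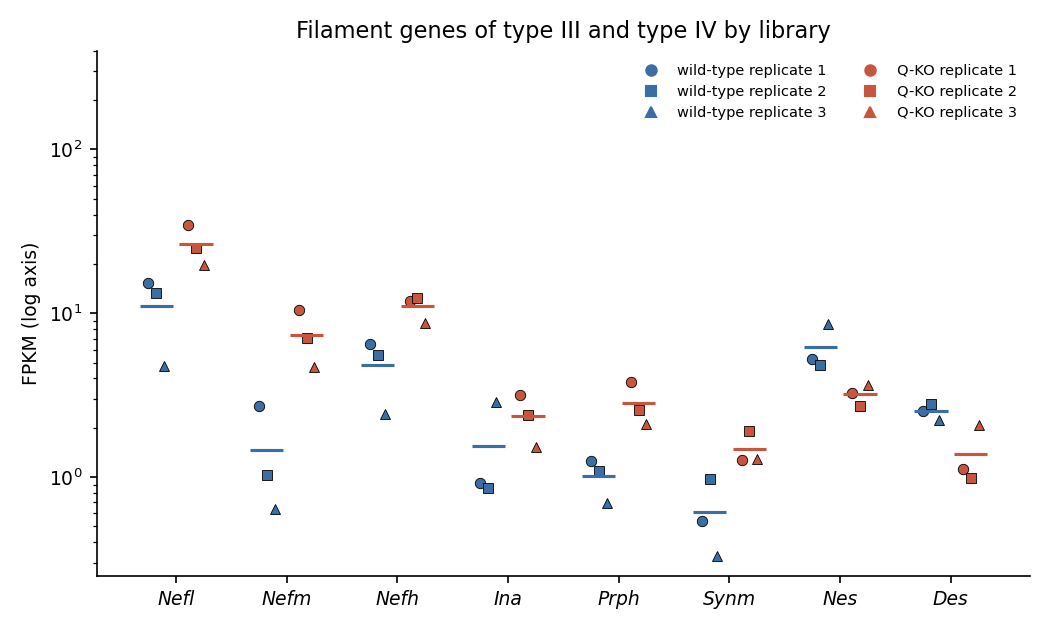
FPKM (log axis) of 8 type III and type IV filament genes in each library; symbols mark the replicate, colours the group and horizontal lines the group mean. Nefl, Nefm, Nefh, Prph and Synm are higher in each Q-KO library than in any wild-type library, and Nes and Des are lower in each.

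Of 15 neural markers, among which neurofilament genes are not counted, 4 were tested and 0 passed limma's threshold, with 2 log2 changes above 0, 2 below and a median of 0.13. Their summed level was 143 to 200 FPKM in the wild type and 118 to 164 FPKM in Q-KO. The most abundant, the tubulin-binding gene Stmn2, weighed most in this sum. It was at 139, 126 and 96.1 FPKM in the wild type and 93.9, 70.6 and 64.6 FPKM in Q-KO. Its log2 change was -0.65 (limma adjusted p = 0.107). Without wild-type replicate 3 it passed, at -0.80 (limma adjusted p = 0.0494). The tau gene Mapt had the opposite sign, at 8.68, 6.66 and 4.23 FPKM in the wild type and 9.22, 11.96 and 14.7 FPKM in Q-KO, with separate ranges (log2 change 0.81, limma adjusted p = 0.124). The log2 change was 0.37 for Tubb3, the neuronal tubulin gene, and -0.11 for Msi1, an RNA-binding protein gene, whose groups overlapped. Pax6, a neural progenitor factor gene under 0.25 FPKM in all 6 libraries, had all its Q-KO values above its wild-type values and was not tested. Map2 and Elavl4, also not tested, had all their Q-KO values below their wild-type values. Mean FPKM was 0.857 in the wild type and 0.297 in Q-KO for Map2, and 0.41 and 0.195 for Elavl4. Dcx, which marks migrating neuroblasts, was listed at 0 in 5 of the 6 libraries and at 0.00133 FPKM in Q-KO replicate 1.

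Lamin genes showed small differences. Lmnb1, the gene of lamin B1, was at 179, 150 and 128 FPKM in the wild type and at 139, 126 and 109 FPKM in Q-KO. The groups overlapped, with a log2 change of -0.28 (SE 0.16, 95% interval -0.66 to 0.10, limma adjusted p = 0.366) and of -0.40 without wild-type replicate 3. Lmna, which encodes lamins A and C, was at 11.5, 7.08 and 14.5 FPKM in the wild type and at 10.3, 8.34 and 8.52 FPKM in Q-KO. Wild-type replicate 3 was the highest and wild-type replicate 2 the lowest, so the Q-KO libraries lay within the wild-type range (log2 change -0.21, 95% interval -0.76 to 0.34, limma adjusted p = 0.648). Without wild-type replicate 3 the log2 change of Lmna was -0.00543, and without wild-type replicate 2 it was -0.48.

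The ratio of Lmna to Lmnb1 FPKM was 0.0639, 0.0472 and 0.114 in the wild type and 0.074, 0.066 and 0.0781 in Q-KO. B-type transcript was thus in excess in all 6. The log2 ratio differed by 0.05 between the groups (exact two-sided permutation test, p = 0.9) and by 0.40 without wild-type replicate 3, and its SD was 0.64 in the wild type and 0.12 in Q-KO.

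Of 18 partners of the lamina and of the complexes that join it to the cytoskeleton, 16 were tested, and 0 rose and 1 fell. Over all genes tested, 3.04% rose and 1.02% fell. Lbr, the lamin B receptor of the inner nuclear membrane, was at 71.1, 79.4 and 63.6 FPKM in the wild type and at 40.3, 45.6 and 41.0 FPKM in Q-KO, with separate ranges. On the log2 scale Lbr fell by 0.74 (SE 0.13; limma, adjusted p = 0.0252), but it did not pass without wild-type replicate 1 (limma adjusted p = 0.0911), wild-type replicate 2 (0.0515) or any one of the Q-KO libraries (0.0812 to 0.114), nor with a Y-linked term added (0.101). With 1 library left out or that term added, its log2 change was -0.58 to -0.82. The list's median log2 change was -0.001. Its most abundant gene, Banf1, whose product binds DNA at the envelope, was at 315 ± 45.3 FPKM in the wild type and 251 ± 42.9 FPKM in Q-KO.

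Among 14 filament kinases and chaperones 12 were tested, and 0 rose and 1 fell, against 3.04% and 1.02% of all genes. The list's median log2 change was -0.19. Aurkb, the mitotic kinase that phosphorylates vimentin at the cleavage furrow, was at 36.6, 37.4 and 31.8 FPKM in the wild type and at 19.6, 20.6 and 18.4 FPKM in Q-KO. Aurkb fell by 0.82 (SE 0.13, limma adjusted p = 0.0155), and did not pass without wild-type replicate 1 (limma adjusted p = 0.0702), without any one of the Q-KO libraries (0.0573 to 0.105) or with the Y-linked term added (0.0591). Its log2 change was -0.68 to -0.89 with 1 library left out or that term added. The most abundant gene of the list was Ywhae, a 14-3-3 protein gene (561 ± 40.2 and 474 ± 20.1 FPKM).

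Of 30 other keratin genes 28 had a mean under 1 FPKM, of which 21 were under 0.1 FPKM in all 6 libraries and 3 were listed at 0 in all. The most abundant, the type I gene Krt42, was at 13.6, 2.40 and 21.9 FPKM in the wild type and 8.77, 9.51 and 21.9 FPKM in Q-KO (limma adjusted p = 0.798). Krt17, the other tested one, overlapped too (limma adjusted p = 0.351). Both lie on chromosome 11, one of those shifted in wild-type replicate 3.

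Genes of the plakin and desmosome list and of the epithelial junction list had many of their highest values in wild-type replicate 3, like Krt8 and Krt18. This library was the highest of the 6 for 6 of 9 tested plakin and desmosome genes and for 7 of 13 tested epithelial junction genes, against 17.9% of all genes tested. Jup, one of these desmosome genes, lies on the shifted chromosome 11. The desmosomal linker gene Dsp was at 0.721, 1.12 and 3.66 FPKM in wild-type libraries, and the claudin gene Cldn6 at 5.52, 5.01 and 15.2 FPKM, both named after their values were seen. Between the groups 0 of the 9 and 0 of the 13 passed limma's threshold, with median log2 changes of -0.17 and 0.14. Their most abundant members were Pkp4, for a plakophilin (26 ± 2.33 and 23 ± 3.74 FPKM), and the E-cadherin gene Cdh1 of the shifted chromosome 8 (143 ± 27.5 and 155 ± 13.4 FPKM).

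Trophectoderm is the first keratin-bearing epithelium. Of 12 trophectoderm markers 7 were tested, and 2 rose and 0 fell, against 3.04% and 1.02% of all genes. The log2 change was above 0 for 5 of the 7 and below it for 2, Tead4 and Tfap2a (-0.24 and -0.45), with a median of 0.94. Eomes, a T-box factor gene, went from 1.16 ± 0.08 to 5.64 ± 0.34 FPKM (log2 change 1.62, limma adjusted p = 0.00398) and Tfap2c, an AP-2 factor gene, from 17.2 ± 1.67 to 34.2 ± 5.23 FPKM (0.94, limma adjusted p = 0.0194). In wild-type replicate 3 they were at 1.02 and 1.004 times the mean of the other wild-type libraries. The level summed over the list was 45.4 to 52.1 FPKM in the wild type and 64.8 to 83.4 FPKM in Q-KO. Tfap2c, the most abundant gene of the list, weighed most in this sum, while the keratin sum overlapped between the groups. The call of Tfap2c did not hold without wild-type replicate 1, Q-KO replicate 2 or Q-KO replicate 3 (limma adjusted p 0.0631, 0.13 and 0.0783). Of 14 primitive endoderm and 11 mesenchymal transition genes 4 and 4 were tested, and 0 and 0 passed limma's threshold, with Sparc and Fn1 the most abundant (132 ± 45.1 and 148 ± 23.7 FPKM, and 143 ± 7.64 and 209 ± 58.9 FPKM).

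**Figure D4:**
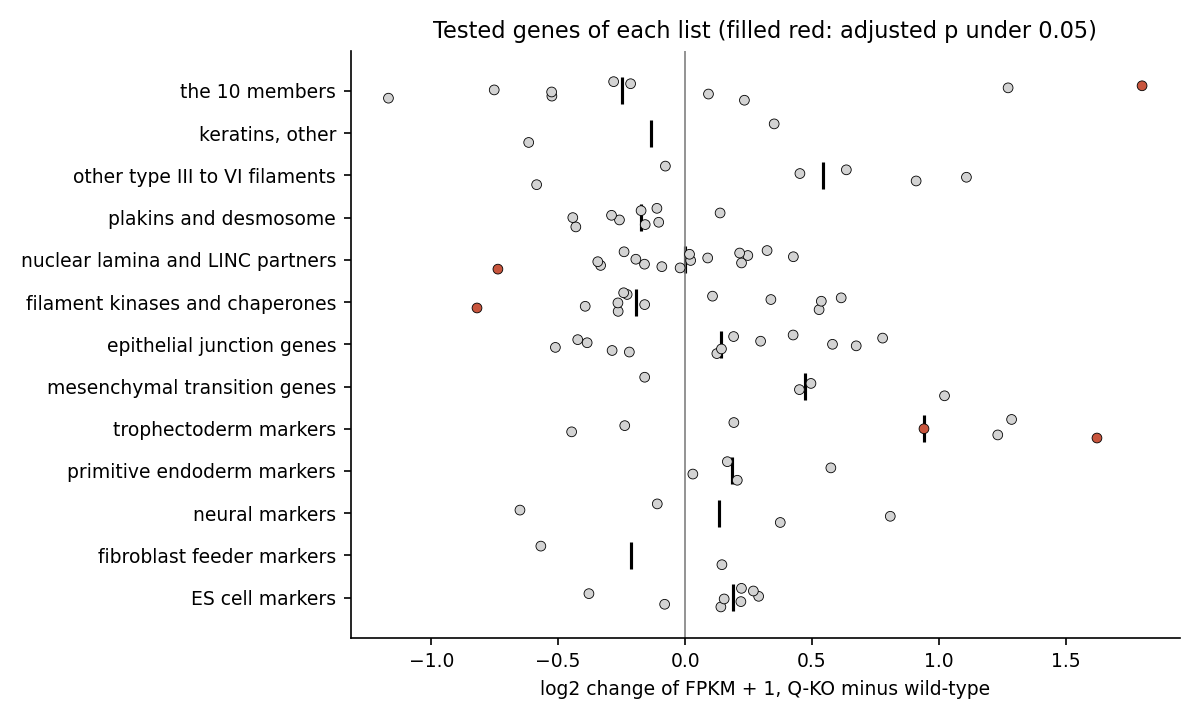
Log2 change of FPKM + 1, Q-KO minus wild-type, of each tested gene of the 10 members and of each list; red points passed limma's threshold, grey points did not, and black bars mark medians. Nefm, Lbr, Aurkb, Eomes and Tfap2c are the genes that passed, and the median of the members is -0.25.

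Adding a Y-linked transcript term to the model, a choice made after the data were seen, sets Q-KO against wild-type replicate 3 alone. With 1 library on the wild-type side, assumed to vary like the others, its values are a description. The log2 difference was -3.29 for Krt8, which restates the high value of that library, -1.29 for Krt18, -1.197 for Nes, 2.21 for Nefl and 2.29 for Nefm. Past limma's threshold were 4 of the 10 members, all of these but Krt18, and 7.72% of all genes. In it genotype cannot be told apart from whatever else sets that library apart.

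The genes whose pattern over the 6 libraries was most like that of a member were sought among the 7674 genes that averaged 5 FPKM or more, by Pearson's r of log2(FPKM + 1), as a description. For Nefm they were Zbtb2, Zw10 and Dcbld1 (r of 0.993, 0.99 and 0.988), and for Nefl Fkbp1a, Manba and Smndc1 (0.988, 0.987 and 0.985). For Nes they were Dctn6, Wdr55 and Dpys (0.995, 0.993 and 0.99), and for Krt8, for which wild-type replicate 3 is far from the other points, Med1, Psmd11 and Nek3 (0.991, 0.99 and 0.984). For Vim the closest was Tcea3 (0.975), for Lmnb1 Fbxo5 (0.99), for Lmna Ifrd2 (0.978), for Krt18 Gtl3 (0.983), for Krt7 Aurkaip1 (0.992) and for Krt19 Snhg1 (0.986).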

How the data were processed

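The values used are FPKM per gene symbol, deposited by the authors in 1 table. The submitters' processing notes list the build mm9 and the tools STAR 2.5, Cufflinks, CASAVA and bcl2fastq 2.16, with no role or order. FPKM of a gene can be shifted by a few very abundant genes of a library. After 1 stray header row was dropped, 24043 rows remained. The 11573 that averaged 1 FPKM or more were tested as log2(FPKM + 1) with limma 3.58.1 in R 4.3.3 (intensity trend, two-sided, Benjamini-Hochberg over all genes, threshold 0.05), and the fit was tested on simulated data. Changes are Q-KO minus wild-type, and this scale understates changes of low genes. Ratios and sums were compared with exact permutation tests (SciPy 1.17.1). Groups and replicate numbers come from the sample titles. No count test applies to FPKM, and without fragment numbers no counting interval was computed.

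The members, 12 gene lists and the naming rule were chosen with earlier results of these data known. From each list the text names up to 4 called genes, by size of change, and the tested gene of highest mean, and for each member genes of like pattern; other genes were picked with their values in view. Alternatives were a pseudocount of 0.1, other filters, scalings and variance models, a replicate block, omission of single libraries, and a Y-linked transcript term added after the data were seen. Promoter sequences come from RefSeq, build GRCm38.p6.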

Additional observations from a re-analysis of the deposited data

How the results depend on the processing

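The number of genes past the threshold was 470, 266 with a mean of at least 5 FPKM, 894 with the term for Y-linked transcripts and 28 to 566 with 1 library left out: 94 without wild-type replicate 1, 187, 28 and 85 without Q-KO replicates 1, 2 and 3. Of the members, 1 passed, and 0 with no filter, 0 of the 5 still tested with a mean of at least 5 FPKM, 2 with the replicate block (Nefl, adjusted p = 0.0415, joined Nefm), 4 with the term for Y-linked transcripts and 0 to 1 with 1 library left out. Over all genes tested, same-numbered libraries did not deviate together (r of deviations -0.03, 0.01 and 0.02), which does not settle it for single genes. Among the members, Nefl, Nefm and Lmnb1 fell from replicate 1 to replicate 3 in both groups, and Krt7 rose in both. Nes was lowest in replicate 2 and highest in replicate 3 in both groups. Krt8, Krt18, Krt19, Vim and Lmna were ordered differently in the groups. Whether same-numbered libraries share a batch was not tested. The block also lost the call of Tfap2c (adjusted p = 0.0503).

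The log2 change was -0.0781 for Krt19 and -0.0568 for Col5a1 after quantile normalization, and, with the Y-linked term, -0.40 for Krt7, -0.0511 for Krt19, -0.18 for Cdh1, -0.78 for Krt42 and 0.0307 for Lmnb2. With 1 library left out it ranged from -0.40 to 0.59 for Krt7, -0.18 to 0.44 for Krt19, -0.46 to 0.92 for Krt42, -0.20 to 0.094 for Lmnb2, -0.0892 to 0.30 for Col5a1 and -0.0536 to 0.49 for Dppa5a. Over the same fits the log2 difference was -1.45 to 0.0193 for the ratio of Krt8 to Krt18, -1.09 to 0.15 for the keratin sum, -0.23 to 0.40 for the ratio of Lmna to Lmnb1, 0.98 to 1.76 for the neurofilament sum and -1.42 to -0.82 for the ratio of Nefl to Nefm. The cause was not tested. Median-of-ratios scaling moved the median log2 change of all genes from 0.07 to -0.0054, quantile normalization to -0.0276, and neither changed a call of a member. Genes near 1 FPKM, such as Krt19, rest on fewer fragments than abundant genes of like length, but the number of fragments is not given.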
